A study of Mus musculus with 16 samples.

Results

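Of the 1231362 2-kb windows on the 19 mouse autosomes (mm10), 905156 lay more than 5 kb from every transcript start of the GENCODE annotation, and 14133 of these distal windows passed a limit on WT H3K4me3 fragments in spermatids, which took no account of the IgG control. They were selected on the pooled distinct fragments of both WT H3K4me3 libraries: a window was taken if the fragment midpoints it held were at least 5 times the number that an even spread over 2.46 Gb would give, a ratio called the fold. The WT H3K4me3 values of these windows are therefore a description and were not tested. Another 34274 windows with a fold of at least 5 lay nearer to a start and served as the comparison.

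H3K4me3 is a trimethylated form of histone H3 laid down mainly at promoters, where it accompanies transcription initiation. In male germ cells it is also deposited at meiotic recombination hotspots by PRDM9, and distal H3K4me3 can mark unannotated promoters, strong enhancers, or transposable elements. H3K27me3 is the mark of Polycomb repression and H3K9me3 that of constitutive heterochromatin, which covers many repeats.

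The cells were live haploid spermatids, sorted by Hoechst and propidium iodide from testes of adult WT and KO siblings. The KO animals derive from a single CRISPR line, backcrossed to C57BL/6J, with deletions within all 3 X-linked genes of the short histone variant H2A.B (H2afb1, H2afb2, and H2afb3) that remove or shift much of each reading frame, so a hemizygous KO male has no intact copy. AutoCUT&RUN, in which an antibody tethers MNase to chromatin and the released DNA is sequenced from both ends, was run for 3 marks, H3K4me3, H3K27me3, and H3K9me3, with IgG as the control antibody. This gave 16 libraries in 8 groups of 2, with replicates 1 and 2 read as sibling pairs. Distinct autosomal fragments numbered 140181 to 236269 in the IgG libraries, 708411 to 3229214 for H3K4me3, 196218 to 3773436 for H3K27me3, and 3136799 to 3963850 for H3K9me3, and an exact permutation test of 2 libraries against 2 cannot give a p below 0.333. The label of the cells was checked at gene starts. WT H3K4me3 within 1 kb of the start had a fold of at least 5 at 9 of 10 spermatid genes (median 20.1), the exception being Prm1, which encodes protamine 1, at 2.24, and at 0 of 5 Sertoli, 0 of 5 Leydig, 0 of 4 macrophage, 0 of 5 spermatogonial, and 0 of 3 endothelial genes, whose highest value was 4.02.

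The distal windows formed 9358 stretches, of which 6156 were a single window and 2198 a pair. Their WT fold had a median of 8.94. Among the 10 with the highest WT fold and a pooled IgG fold under 5, 6 lay on chromosome 14, 2 lay on chromosome 4, and 1 each on chromosomes 8 and 17. The 300 bp around the summit, the position of highest WT H3K4me3 coverage, are printed here for 4 of these windows. Each has no near-identical copy among the other summits. They show what sequence lay under some of the highest WT folds within that IgG limit. The window on chromosome 14 holds the start of the RefSeq mRNA of Gm2977, at which GENCODE places none. They are read from the GRCm38 assembly on the + strand, with CpG dinucleotides in capitals.
chr4:146591224-146591523: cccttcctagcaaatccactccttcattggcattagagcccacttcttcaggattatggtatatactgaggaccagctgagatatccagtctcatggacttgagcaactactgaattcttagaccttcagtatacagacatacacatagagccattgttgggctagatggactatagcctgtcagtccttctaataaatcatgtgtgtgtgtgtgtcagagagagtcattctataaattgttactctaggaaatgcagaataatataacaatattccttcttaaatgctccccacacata
chr14:3504834-3505133: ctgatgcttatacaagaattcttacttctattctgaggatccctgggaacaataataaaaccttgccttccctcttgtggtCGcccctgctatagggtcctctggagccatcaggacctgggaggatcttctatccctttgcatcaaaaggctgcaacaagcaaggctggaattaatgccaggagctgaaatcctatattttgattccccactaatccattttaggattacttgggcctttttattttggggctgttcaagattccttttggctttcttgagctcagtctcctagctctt
chr17:6491145-6491444: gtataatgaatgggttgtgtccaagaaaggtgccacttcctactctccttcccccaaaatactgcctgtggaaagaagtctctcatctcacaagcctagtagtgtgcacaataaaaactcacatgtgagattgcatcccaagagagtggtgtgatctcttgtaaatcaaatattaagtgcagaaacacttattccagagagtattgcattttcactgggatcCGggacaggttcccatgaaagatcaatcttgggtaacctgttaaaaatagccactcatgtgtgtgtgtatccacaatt
chr8:71137231-71137530: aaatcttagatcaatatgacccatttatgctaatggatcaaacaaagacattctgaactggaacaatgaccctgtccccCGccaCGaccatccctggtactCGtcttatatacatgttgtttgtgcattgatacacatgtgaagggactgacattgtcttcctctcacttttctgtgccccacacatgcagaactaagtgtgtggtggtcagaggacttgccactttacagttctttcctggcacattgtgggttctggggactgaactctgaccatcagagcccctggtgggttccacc
The summits of the 10 windows were poor in CpG, with 0 to 3 CpG dinucleotides in 300 bp and a GC content of 32% to 48%.

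Among these 10, the window of highest fold, chr4:146590001-146592000, lies in an intron of the lincRNA gene Gm26573, 9.37 kb from the nearest start. It held 65 and 209 H3K4me3 fragments in WT replicates 1 and 2 and 197 and 302 in KO replicates 1 and 2. The IgG libraries held 0 and 1 fragments there in WT and 1 and 0 in KO. H3K9me3 fragments numbered 20 and 39 in WT and 23 and 28 in KO, a pooled H3K9me3 fold of 9.53. The KO H3K4me3 libraries, which did not choose this window, were thus far above the controls there. The window also carried H3K9me3.
The window chr17:6490001-6492000, in an intron of the lincRNA gene Gm26848, held 74 CpG dinucleotides and differed from the others in H3K27me3. Its H3K4me3 libraries held 59 and 118 fragments in WT and 110 and 175 in KO, and its H3K27me3 libraries 39 and 2 in WT and 43 and 6 in KO. The pooled H3K27me3 fold was 14.7, against 0.164 to 1.15 in the other 9 windows.
The window chr8:71136001-71138000 is intergenic in GENCODE, 16.7 kb from the nearest start, while RefSeq places Gm7827 over it. H3K4me3 fragments there numbered 19 and 121 in WT and 46 and 260 in KO, and H3K9me3 fragments 3 and 1 in WT and 0 and 2 in KO. This was the only window of the 10 with a pooled H3K9me3 fold under 1 (0.52).

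Whether the same windows carried H3K4me3 in KO spermatids was asked with the KO libraries, which the choice of windows did not use. In the pooled KO libraries, 75.6% of the distal windows had a fold of at least 5, against 1.4% of all distal windows and 91.7% of the H3K4me3 windows near starts. The share rose with the WT fold, from 45.6% of windows with a WT fold of 5 to 7, to 76.2% at 7 to 10. It was 97.1% at 10 to 20, 99.8% at 20 to 40, and 100% at 40 and over. Taken alone, KO replicate 1 had a fold of at least 5 at 81.4% of the windows and KO replicate 2 at 65.5%. Of the 122 windows with a WT fold of 40 and over, 55.7% also had a pooled IgG fold of at least 5. A pooled H3K9me3 fold of at least 5 was found at 54.9% of them. At a WT fold of 20 to 40 these shares were 12.8% and 7.59%.
The share with a KO fold of at least 5 depended on which WT library chose the windows. It was 39.6% of the 26951 windows chosen on replicate 1 alone (without H3K4me3 WT replicate 2) and 83.9% of those chosen on replicate 2 alone. Replicate 1 was the shallower, with 708411 distinct fragments against 2043088. There 3 fragments give a fold of 5.21, while in replicate 2 a window with 8 stays at 4.82. The part of depth in this gap was not tested. The 3 windows just inside the limit had a WT fold of 5.36 and KO folds of 2.75 to 3.85. The 3 just outside had a WT fold of 4.92 and KO folds of 3.57 to 4.95. Among these windows the KO values on either side of the limit overlapped. All were picked among ties by coordinate and lie on chromosome 1. Those just inside belong to groups of 164, 164, and 2732 distal windows with near-identical summit sequence, so they cannot stand for all windows at the limit.

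Over all distal windows together, H3K4me3 fragments were 9.57-fold and 13.0-fold above the library mean in KO replicates 2 and 1, and IgG fragments 4.09-fold and 4.92-fold in the same animals. The log2 difference was 1.31 (exact permutation test, p = 0.333, the smallest that 2 libraries against 2 allow), and both H3K4me3 libraries lay above both IgG libraries. The size of this difference moved with the processing. It was 0.79 without H3K4me3 WT replicate 2. Without the windows of high IgG, those with a pooled IgG fold of at least 5, it was 3.4003. That pool includes the KO IgG libraries, so IgG is low there by choice and the larger difference follows from the choice. In WT replicates 1 and 2 the H3K4me3 folds, which chose the windows, were 14.95 and 9.93. Replicate 1 was the higher in both genotypes. Per window, limma-voom called 933 of the 1030 distal windows deep enough to test as higher in KO H3K4me3 than in KO IgG and 58 as lower, where 97.3% and 1.08% of all 9668 windows tested were called. Because the depth filter passes mostly windows with many H3K4me3 fragments, no count over the windows tested is a result about the distal windows. The higher calls were a smaller share of them, and the lower calls a larger share, than of all windows tested. With 1 library left out, the lone library of its arm being assumed to vary like the others, the higher calls numbered 0 without IgG KO replicate 2 and 0 without H3K4me3 KO replicate 2, where over all windows they were also 0, and 907 and 697 without replicate 1 of IgG and of H3K4me3, where over all windows they were 8626 of 10658 and 7458 of 8396.

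**Figure D1:**
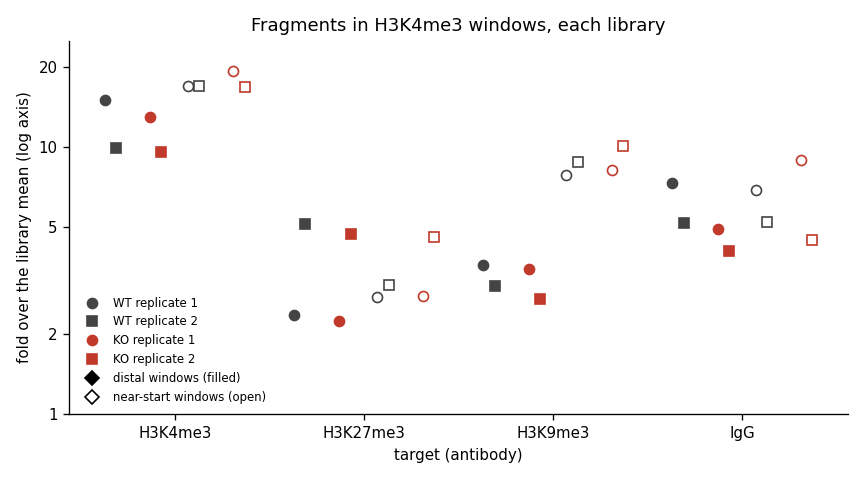
Fold over the library mean (log axis) in the distal (filled) and near-start (open) H3K4me3 windows for each target, with 1 point per library, WT in gray, KO in red, circles for replicate 1 and squares for replicate 2. H3K4me3 in the distal windows lies between 9.57 and 14.95, and IgG between 4.09 and 7.35.

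The IgG level was carried by few windows. The 100 windows with the most fragments held 51.8% to 71.5% of the IgG fragments found in distal windows, against 4.11% to 4.69% for H3K4me3. H3K27me3 was as concentrated as IgG, at 44.5% to 72.9%, and H3K9me3 stood at 35.8% to 44.4%. Every window had to reach a fold of 5 in pooled WT H3K4me3, so an even spread of WT H3K4me3 follows in part from the choice. The KO H3K4me3 libraries, which did not choose the windows, stood at 4.69% and 4.11% in replicates 1 and 2. A pooled IgG fold of at least 5 was found at 1925 distal windows (13.6%), compared with 6.39% near starts and 3.47% of the other distal windows. At the depth of the IgG libraries this takes only 3 fragments in all 4 together, the number at 828 of these windows, and the median was 4. The extreme was chr17:4626001-4628000, intergenic in GENCODE and 6.98 kb from the nearest start, while RefSeq places Gm34259 over it. It held 407 and 1351 IgG fragments in WT replicates 1 and 2 and 581 and 802 in KO. H3K4me3 fragments there numbered 90 and 368 in WT and 73 and 123 in KO. These were fewer than the IgG fragments of the same genotype and replicate, although the IgG libraries were shallower. The WT H3K4me3 fold of this window was 204.7, and its pooled IgG fold was 5579. It was thus above the 122.5 of the chromosome 4 window that ranked first under the IgG limit. The next 4 windows by IgG, 2 on chromosome 18 and 1 each on chromosomes 10 and 11, had pooled IgG folds of 1082 to 1739. At these windows an H3K4me3 fold of at least 5 was accompanied by a larger fold in the control. In the 12208 distal windows with a pooled IgG fold under 5, a set chosen on IgG, H3K4me3 folds were 13.9 and 10.05 in WT and 12.8 and 9.90 in KO, and IgG folds 0.84 to 1.08.

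**Figure D2:**
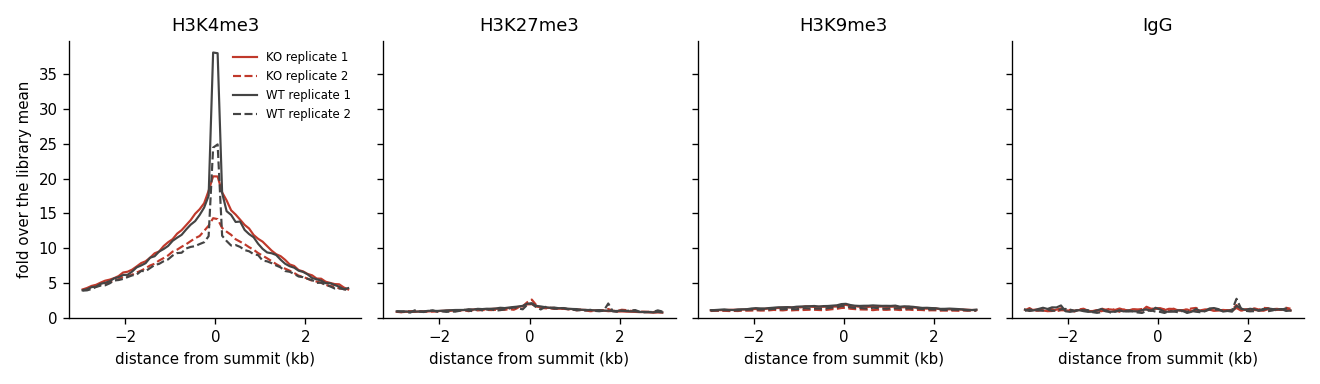
Fold over the library mean in 100-bp bins within 3 kb of the summits of distal windows with a pooled IgG fold under 5, with 1 line per library, WT in gray, KO in red, solid for replicate 1 and dashed for replicate 2. Summits were placed on WT H3K4me3, which gives WT its narrow spike by construction, while the KO libraries, at 20.3 and 14.2 in the bin centered 50 bp from the summit, show the shape without that choice.

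H3K27me3 and H3K9me3 were low at most distal windows. The median pooled fold was 0.327 for H3K27me3 and 0.433 for H3K9me3, against 0.164 and 0.173 in the other distal windows, but 6.3% of the windows had an H3K27me3 fold of at least 5 and 15.8% an H3K9me3 fold of at least 5, compared with 8.31% and 3.98% near starts and 1.54% and 3.56% of the other distal windows. Taken singly, the libraries gave 5.82% to 14.0% for H3K27me3, against 1.55% to 6.43% of the other distal windows. The highest was WT replicate 2, so shallow that 1 fragment passes a fold of 5, which held no fragment in 86.0% of the distal windows. For H3K9me3 the range was 7.05% (KO replicate 2) to 19.2% (WT replicate 1), against 2.33% to 4.15% of the other distal windows. Against the near-start windows the order was the reverse in the mean H3K9me3 fold. It was 2.70 to 3.63 in the distal windows and 7.85 to 10.07 near starts. Summed over the distal windows, H3K27me3 was below IgG by a log2 difference of -0.65 (4 libraries against 4, exact permutation test, p = 0.171; -0.070 when scaled to the other distal windows, p = 0.8) and H3K9me3 by -0.73 (exact permutation test, p = 0.0286, the smallest this design allows; -0.60 when scaled to the other distal windows, p = 0.0571, and -0.19 with every deposited fragment, p = 0.257). Neither direction held without the windows with an IgG fold of at least 5: the differences were then 0.53 and 0.67 (exact permutation test, p = 0.0286 for each), and this set is low in IgG by choice. For H3K9me3, p was 0.125 with the animal as the replicate block, the smallest that 4 pairs allow. The direction against IgG over the whole set thus turned with the 1925 windows of high IgG.
Among windows deep enough for limma-voom, 136 of 199 distal windows were called higher and 38 lower in H3K27me3 than in IgG, where 95.7% and 0.843% of all windows tested were called. For H3K9me3, 122 of 173 were called higher and 37 lower, against 90.3% and 3.57%. A window passed these depth filters, of 176 and 319 fragments over all libraries fitted, mostly by being high in the mark or in IgG, so the direction of these calls is largely set by the filter and is no result about the distal windows. Under the planned filter of at least 10 fragments most calls turned to lower, 522 of 869 for H3K27me3 and 1040 of 1216 for H3K9me3, where over all windows 8742 were called lower and 20723 higher for H3K27me3 and 55641 lower and 8428 higher for H3K9me3. On simulated data, that filter also called unchanged windows lower.

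Much of the H3K27me3 lay in a single place. On chromosome 6, 39 distal windows in 2 stretches, chr6:47650001-47688000 and chr6:47736001-47776000, lay in a tandem array of the 4.5S RNA gene (Rn4.5s), whose product is a small noncoding RNA of rodents. RefSeq places 1 gene of 174 bp there (chr6:47654921-47655094, - strand), and 14 copies with at least 95% identity over at least 95% of its length were found, spaced by a median of 4337 bp. The mean H3K27me3 fold of these windows was 280 and 605 in WT replicates 1 and 2 and 273 and 910 in KO, and their H3K4me3 fold was 69.1 and 41.4 in WT and 42.6 and 36.6 in KO. IgG folds were 14.8 to 26.96 and H3K9me3 folds 6.12 to 8.16. All 39 windows had an H3K27me3 fold of at least 5, and they held 32.5% to 53.3% of the H3K27me3 fragments found in distal windows. Both marks were thus found over the same array, at a mean fold above IgG in every library. The number of copies in these animals was not measured, and its part in these folds was not tested. In the bin where H3K4me3 was highest around the copies, KO replicate 1 of IgG had a fold of 111.6 and WT replicate 1 of 6.25. Both replicate 2 libraries of IgG had no fragment there. The IgG libraries held 66 to 202 fragments over the 39 windows, so single bins rest on few. Centered 100 bp below the copies' lower coordinate, IgG was 124.9 and 94.0 in WT replicates 1 and 2, above H3K4me3 at 49.6 and 41.3. In KO it was 3.72 and 5.01, below H3K4me3 at 27.5 and 50.1.

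**Figure D3:**
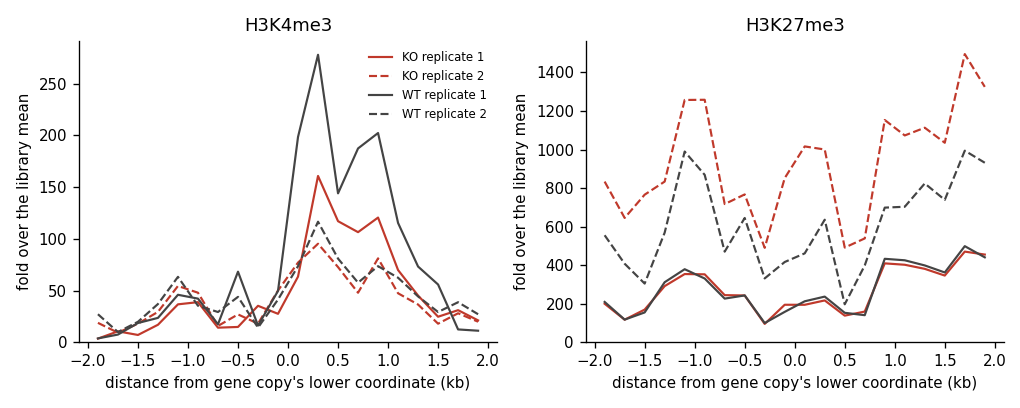
Fold over the library mean in 200-bp bins around the lower coordinate of the 14 copies of the 4.5S RNA gene, for H3K4me3 (left) and H3K27me3 (right), with 1 line per library, WT in gray, KO in red, solid for replicate 1 and dashed for replicate 2. H3K4me3 is highest in the bin centered 300 bp above that coordinate in all 4 libraries, at 95.2 to 278, and H3K27me3 is spread over the repeat unit.

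The 5 windows with the highest H3K9me3 fold among those with an IgG fold under 5 all lay on chromosome 5, with Speer4cos, Speer4e, or Gm9758 as the nearest gene start. The Speer genes are a rodent family expressed in the testis. The highest, chr5:15688001-15690000 in an intron of Speer4cos, held 483 and 322 H3K9me3 fragments in WT and 555 and 335 in KO, and 4 and 12 H3K4me3 fragments in WT and 1 and 21 in KO. H3K9me3 was high in all 4 libraries, while 3 of the 4 H3K4me3 libraries held 12 fragments or fewer.
Among the 5 windows of highest H3K27me3 fold with an IgG fold under 5, chr19:53776001-53778000 in an intron of Rbm20, which encodes a splicing factor, stood apart. Its H3K27me3 libraries held 274 and 14 fragments in WT and 225 and 104 in KO. Its H3K4me3 libraries held 19 and 1 in WT and 0 and 1 in KO, so WT replicate 1 held nearly all the fragments that chose this window.

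Near-identical sequence was frequent. With the 300 bp around each summit compared with all others, 3946 distal windows (27.9%) matched another at 90% identity or more over at least 240 bases, and 2732 of them, on all 19 autosomes, were linked into a single group. Windows outside such groups may still have copies elsewhere in the genome, which was not searched. The largest group had a median of 99.5% soft-masked (repeat) sequence and 27 CpG dinucleotides per window, against 23.9% and 19 in the 10181 windows with no match, the 4.5S RNA array on chromosome 6 set aside. A pooled H3K9me3 fold of at least 5 was found at 54.0% of the largest group and 2.81% of the windows with no match, and an IgG fold of at least 5 at 35.3% and 5.77%. The windows with H3K9me3 were thus largely those with sequence copies: 87.0% of the distal windows with an H3K9me3 fold of at least 5 had a match. The largest group, 19.3% of the distal windows, held 22.9% to 39.5% of the H3K9me3 fragments found in them, and the 4.5S array 0.484% to 0.749%. The windows with no match, 72.0% of the distal windows, held 35.0% to 49.9%.
H3K4me3 in the largest group followed the replicate number. Its mean fold was 19.97 in WT replicate 1 and 10.2 in KO replicate 1, but 3.68 and 2.92 in WT and KO replicate 2. The WT libraries chose the windows, so only the KO values are free of that choice. Mean IgG folds in this group were 3.22 and 2.98 in WT replicates 1 and 2 and 4.27 and 3.93 in KO. In KO replicate 2, H3K4me3 at 2.92 was thus below IgG, while in the remaining H3K4me3 libraries it was above. In windows with no match the mean H3K4me3 fold was 12.9 and 13.3 in replicate 1 and 11.4 and 11.3 in replicate 2. H3K9me3 in the largest group was also higher in replicate 1 (7.40 in WT, 6.60 in KO) than in replicate 2 (4.63 and 3.201). In the pooled KO libraries, 41.3% of the largest group and 85.8% of the windows with no match had a fold of at least 5. All libraries of a replicate number share the codes in their labels, so the sibling pair and whatever else those libraries share cannot be told apart, and a read from one of many near-identical copies cannot be placed with certainty.

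**Figure D4:**
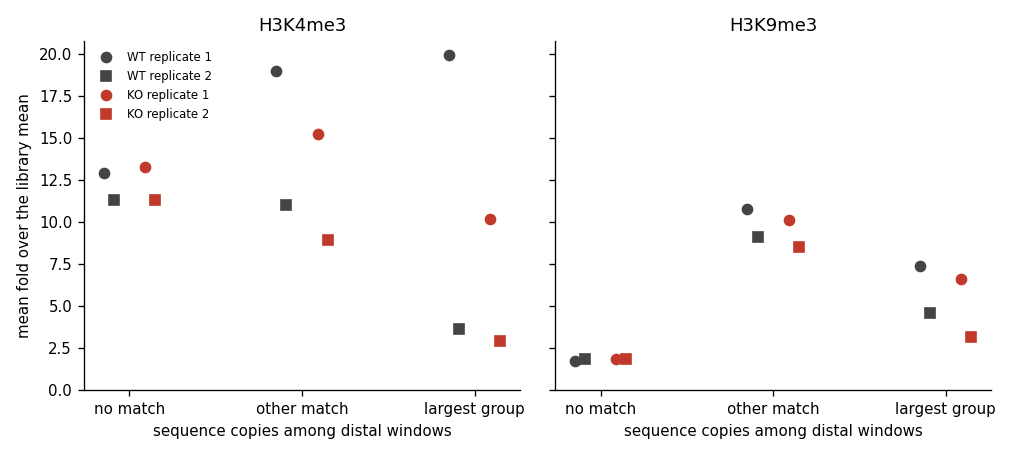
Mean fold over the library mean of H3K4me3 (left) and H3K9me3 (right) in distal windows with no near-identical summit, with another match, and in the largest sequence group, with 1 point per library, WT in gray, KO in red, circles for replicate 1 and squares for replicate 2. In the largest group both replicate 1 libraries of H3K4me3, at 10.2 and 19.97, lie above both replicate 2 libraries. The WT H3K4me3 libraries chose the windows, and the KO libraries did not.

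The distal windows lay in annotated genes about as often as the other distal windows (41.9% against 41.0%), and 10.5% overlapped an exon against 8.67%. They more often held the start of a RefSeq transcript at which GENCODE places none, at 6.42% against 0.869%, and 710 of them held the start of a RefSeq lncRNA. Their median distance to the nearest GENCODE start was 19.1 kb, compared with 25.1 kb. They were richer in GC (median 44.3% against 40.9%) and in CpG (21 against 13 per window). Stretches of 200 bp with GC over 50% and an observed to expected CpG ratio over 0.6 were found in 30.03% of them, in 45.2% of the near-start windows, and in 8.7% of the other distal windows. Under a stricter criterion, 500 bp with GC over 55% and a ratio over 0.75, the shares were 1.62%, 23.5%, and 0.16%, so the distal windows then lay far below the near-start windows. The longest stretch outside the 4.5S array was chr13:111464001-111482000, 9 windows in Gpbp1, which encodes a GC-rich promoter binding protein, with mean H3K4me3 folds of 17.0 and 15.3 in WT and 17.5 and 13.8 in KO. By gene, Gm20388 held the most of these windows, 41 of its 1184 distal windows (3.46%, against 1.56% of all distal windows), with a median WT fold of 9.84 and an IgG median of 0. Gm21847 followed with 23 of 40, and its windows had median folds of 89.2 for H3K9me3 and 8.88 for IgG. Cdh13, which encodes a cadherin, Cntnap2, a neuronal adhesion protein, and Stk32b, a kinase, held 19 each, which is 4.02%, 1.95%, and 14.3% of their distal windows, with median H3K9me3 folds of 0.173, 1.21, and 2.25.
The motifs of 4 factors were searched on both strands of the 300 bp around the summits. The cAMP response element TGACGTCA was found at 0.29% of the distal windows, 0.546% of the near-start windows, and 0.153% of the centers of other distal windows. For the X-box core GTTGCCATG of RFX factors the shares were 0.616%, 0.549%, and 0.294%, for the NRF1 core TGCGCATGC 0.226%, 0.478%, and 0.0901%, and for the CTCF core CCAGGGGGC 0.177%, 0.481%, and 0.129%. All 4 were rare in the distal windows.

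KO and WT were compared in the marks that the choice of windows did not use. For H3K27me3, limma-voom called 0 of 2072 distal windows tested, with 105 (5.07%) at an unadjusted p under 0.05 against 5.42% of all windows tested, and 0.0% of all windows tested were called in either direction. With the sibling pair as the replicate block it called 25, all lower in KO with a median log2 change of -2.28, and none of them in the 4.5S array. Under the same block 0.0568% of all windows tested were called lower (43 windows). Without the block, 33 were called when H3K27me3 KO replicate 1 was left out, 21 higher and 12 lower (77 and 436 over all windows), and 34, all lower (91 over all windows), when WT replicate 1 was left out. In H3K9me3 the test called 0 of 5122 distal windows tested, with 138 (2.69%) at an unadjusted p under 0.05 against 1.36% of all windows tested, where 0.0% of all windows were called higher and 0.00053% lower, and limma-trend and the block called 0 as well. With all 4 libraries, the filter of 10 fragments, and no block, neither mark thus gave a call at the distal windows. A filter of at least 30 fragments gave 6 lower calls for H3K27me3, which were all the calls it made.

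Fragment sizes, which the choice of windows did not use directly, were compared as the log2 ratio of small (at most 120 bp) to large (at least 150 bp) fragments. For H3K4me3 in the distal windows it was -1.94 and -1.82 in WT replicates 1 and 2 and -1.14 and -0.91 in KO. Both KO libraries lay above both WT libraries, with a difference of 0.85 (exact permutation test, p = 0.333, the smallest possible). The windows near starts showed the same order, at -1.53 and -1.73 in WT and -0.85 and -0.79 in KO, and whether the difference itself differed between the sets was not tested. Small fragments made up 19.8% and 20.5% of H3K4me3 fragments in WT and 30.05% and 32.2% in KO. The choice on WT fragments can still bear on sizes through the kinds of window chosen. The largest sequence group held 25.8% and 7.16% of the distal H3K4me3 fragments in WT and 15.2% and 5.90% in KO. In windows with no near-identical match the ratio was -1.545 and -1.79 in WT and -0.96 and -0.88 in KO. The part of the choice in the difference was not tested.
For H3K27me3, H3K9me3, and IgG, the differences between KO and WT were 0.15, 0.49, and 0.018 (exact permutation test, p = 1, 0.667, and 1). Within the pairs, KO minus WT for H3K9me3 was 0.52 in pair 1 and 0.46 in pair 2, for H3K27me3 0.70 and -0.39, and for IgG 0.16 and -0.12, so H3K9me3 moved one way in both pairs and the others did not (for H3K9me3 with the replicate block, exact sign-flip permutation p = 0.5, the smallest for 2 pairs). Without the windows of high IgG the difference was 0.63 for IgG, with both KO libraries above both WT libraries (exact permutation test, p = 0.333), 0.85 for H3K27me3 (exact permutation test, p = 0.667), and 0.88 for H3K4me3 (exact permutation test, p = 0.333). The control thus differed in the direction of H3K4me3 in that set, and its part in the H3K4me3 difference was not tested.
Compared with the near-start windows of the same library, the ratio in distal windows differed by a mean of -0.22 for H3K4me3 and was lower in 4 of 4 libraries. In the windows with no near-identical match the mean was -0.067 and in the largest sequence group -0.99. With H3K4me3 WT replicate 1 left out of both the choice of windows and the mean, it was -0.11. That library had the lowest value of the 4, at -0.41. It was higher by 0.52 for H3K27me3, 0.68 for H3K9me3, and 1.85 for IgG, but with small fragments taken as at most 100 bp and large as 140 to 220 bp the H3K9me3 difference reversed to -0.69 (exact permutation test, p = 0.125). For H3K27me3 the 2 replicate 1 libraries differed by 0.00046 in WT and 0.065 in KO, and the replicate 2 libraries by 1.35 and 0.66, so replicate 2 carried the mean. The comparisons of the 4 targets over all distal windows each gave p = 0.125 in an exact sign-flip permutation test over 4 libraries, the smallest it allows. In IgG the median fragment length was 86 to 104 bp in distal windows, 209 to 253 bp near starts, and 81 to 131 bp in the other distal windows, from which the ratio in the distal H3K4me3 windows differed by -0.35 and 0.40 in KO and 0.21 and 1.06 in WT. The near-start windows were thus the set that stood apart in IgG, and likewise in H3K9me3. Their H3K9me3 medians were 300 to 303 bp, against 165 to 182 bp in the distal windows and 167 to 184 bp in the other distal windows. Near starts the mean fold was 7.85 to 10.07 for H3K9me3 and 4.48 to 8.91 for IgG, but the median pooled fold was 0.26 and 0. The pooled sizes near starts thus weigh mostly the few windows with many fragments, and sizes window by window were not tested. The windows of high IgG were also left out of the distal set alone, with the near-start set kept whole, so the 2 sides were not filtered alike. The difference between distal and near-start windows was then 0.94 for IgG (exact permutation test, p = 0.125). Those for H3K27me3 and H3K9me3 were 0.12 (exact permutation test, p = 0.875) and 0.18 (exact permutation test, p = 0.625).

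**Figure D5:**
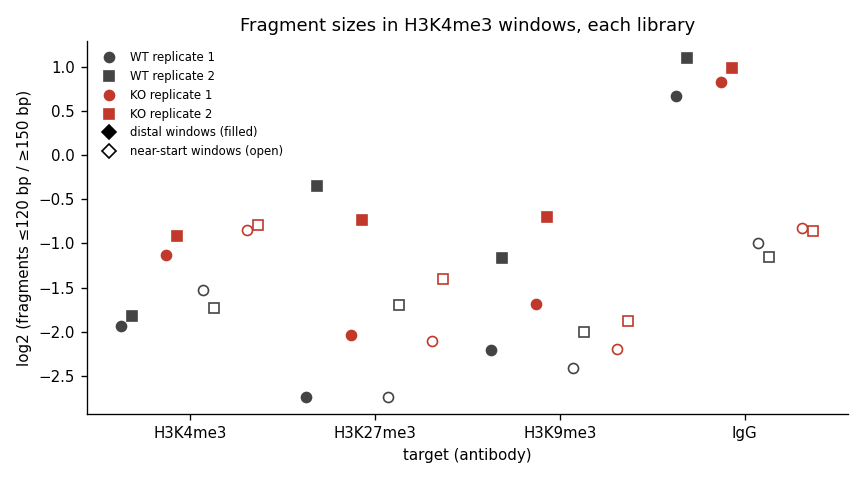
Log2 ratio of fragments of at most 120 bp to fragments of at least 150 bp in distal (filled) and near-start (open) H3K4me3 windows for each target, with 1 point per library, WT in gray, KO in red, circles for replicate 1 and squares for replicate 2. For H3K4me3 the KO libraries, at -1.14 and -0.91, lie above the WT libraries, at -1.94 and -1.82, and the near-start windows show the same order.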

How the data were processed

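AutoCUT&RUN libraries of sorted spermatids were sequenced as paired ends. The authors aligned them to mm10 (Bowtie2 2.3.4.3 per the submitters' processing notes) and deposited, per library, a list of mapped fragments. These deposited values are positions and lengths, with no score, scaling, or pooling of replicates. Repeated coordinates made up 42.6% to 84.4% of the autosomal fragments, and fragments with identical coordinates in a library were counted as 1. Picard duplicate removal is named in the methods although the lists hold such repeats, so what the repeats are is unclear, and distinct fragments with equal ends are merged.

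Midpoints were counted in 2-kb windows. The members, lists, and tests were chosen with earlier results of these data known. Windows were named by rank of WT H3K4me3, IgG, H3K27me3, and H3K9me3 fold, by stretch length, and by closeness to the limit. Sums over windows and size ratios were compared by exact two-sided permutation tests. Counts per window were fitted over all autosomal windows with limma-voom 3.58.1 (R 4.3.3), scaled to the library total, with Benjamini-Hochberg adjustment and a threshold of 0.05.

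The planned filter of at least 10 fragments per window was kept for KO against WT but not for marks against IgG. On data simulated at these depths, where most windows expect less than 1 IgG fragment, it gave a great many false lower calls for H3K9me3, more than the nominal share for H3K27me3, and few calls of any kind for H3K4me3. Other offsets and several other filters were also tried on simulated data. The filter used instead asked that the shallowest library expect at least 3 fragments. It was picked on simulated data, after the fits with the planned filter had been run and their counts of calls over all windows seen, and the counts under the planned filter are given among the alternatives. It leaves few distal windows for those tests.

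Replicate numbers were taken as the WT and KO sibling pairs of the methods. Deviations of same-numbered KO and WT libraries correlated across the distal windows at 0.609 for H3K4me3, 0.403 for H3K27me3, 0.246 for H3K9me3, and 0.0699 for IgG. Summit sequences were compared with blastn 2.17.0. Transcript starts came from GENCODE vM21 and RefSeq. Tables and figures used Python 3.11.15, NumPy 2.4.6, pandas 2.3.3, SciPy 1.17.1, and matplotlib 3.10.9. Alternatives were every deposited fragment, other limits, windows, filters, scaling, and size classes, limma-trend, the replicate block, and leaving out each library.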

Additional observations from a re-analysis of the deposited data

How the results depend on the processing

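Of 250 values under alternatives, 192 kept their direction and side of the threshold, or for counts stayed within 1.5 times. This says nothing of stability where the smallest possible p was 0.333, 0.125, or 0.5, since such a test cannot cross 0.05, and several of these values moved by over 1.5 times. The share with a KO fold of at least 5 was counted as kept only within the half-width of its binomial interval over windows, which are not independent. The cause was not tested where a value changed, unless the alternative's construction gives it. The planned filter for marks against IgG, at least 10 fragments, was replaced after false calls on simulated data, chiefly for H3K9me3.

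The number of windows was 5759 at a fold limit of 10, and 11266 to 26951 when either WT H3K4me3 replicate was left out. The share with a KO fold of at least 5 was 77.2% with every deposited fragment, 97.8% at a fold limit of 10, 74.3% beyond 10 kb, 79.2% without windows of IgG fold at least 5, and 39.6% to 83.9% with a replicate left out. KO H3K4me3 against KO IgG was 2.46 with every deposited fragment, 2.64 when scaled to the other distal windows, and 0.79 to 1.65 with a replicate left out. H3K27me3 against IgG reversed to 0.040 with every deposited fragment and to 0.53 without windows of high IgG, and leaving out a replicate gave -1.002 to -0.18, the former without H3K4me3 WT replicate 2 (exact permutation test, p = 0.0286). H3K9me3 against IgG was -0.19 with every fragment, -0.60 when scaled, 0.67 without windows of high IgG, and -0.85 to -0.39 with a replicate left out. The value of -0.39 was that without H3K4me3 WT replicate 2 (exact permutation test, p = 0.171), and leaving out any 1 H3K9me3 library gave an exact permutation p of 0.0571. With the animal as block, H3K9me3 against IgG stayed at -0.73 (exact sign-flip test, p = 0.125, the smallest for 4 pairs). The block gave the 25 H3K27me3 windows described above and moved the counts of calls against IgG less.

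For small to large fragments, limits of 100 bp and 140 to 220 bp reversed the H3K9me3 difference between distal and near-start windows to -0.69 and the IgG difference between KO and WT to -0.056. They gave 0.50 for IgG (exact permutation test, p = 0.25) and 0.080 for H3K27me3 (exact permutation test, p = 1) between distal and near-start windows. With every deposited fragment, that difference was 1.74 for H3K9me3 and 0.97 for IgG, and without H3K4me3 WT replicate 2 it was 0.39 for H3K9me3. With every deposited fragment, KO against WT was 0.39 for IgG and 0.47 for H3K27me3. With a replicate left out, KO against WT ranged from -0.20 to 0.24 for IgG, -1.04 to 1.35 for H3K27me3, and -0.034 to 1.01 for H3K9me3, where leaving out 1 library also breaks a pair.

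Windows called for KO H3K4me3 over KO IgG numbered 7921 with every deposited fragment, 7154 and 5700 with at least 1 and 30 fragments, 2805 with at least 10, 5421 when scaled to the other distal windows, and 0 to 933 with a replicate left out. Over all windows, higher calls were 35691 of 56360 with every fragment and 28405 of 29686 when scaled. With at least 1, 10, and 30 fragments they were 34735 of 817209, 17446 of 74844, and 29450 of 34350. For H3K27me3 against IgG the counts were 555 with every fragment, 265 when scaled, and 82 without windows of high IgG. With at least 1, 10, and 30 fragments they were 9979 (9805 lower), 869, and 454 (333 higher). Over all windows, 25294 of 30268 were called higher with every fragment, 13860 of 14365 when scaled, and 20173 of 39949 with at least 30. With at least 1, 763685 of 887942 were lower. For H3K9me3 against IgG they were 10378 (10106 lower), 1216, and 310 with at least 1, 10, and 30 fragments (over all windows 968283 lower and 13127 higher of 1058718 with at least 1, and 1401 lower and 4790 higher of 91846 with at least 30), 93 at a fold limit of 10, 94 beyond 10 kb, 34 without windows of high IgG, and 78 (without KO replicate 1) to 164 with a replicate left out. For H3K27me3 in KO against WT they were 1 and 6 with at least 1 and 30 fragments, 25 with the replicate block, and 0 to 34 with a replicate left out. For H3K9me3 in KO against WT they were 2 with at least 1 fragment and 0 to 1 with a replicate left out. Over all windows, at least 1 fragment gave 36 higher and 24 lower of 1021232. The stricter CpG criterion was met by 1.62% of the windows.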
